A study of Saccharomyces cerevisiae with 18 samples.

Results

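The 33 genes described here encode the proteasome of Saccharomyces cerevisiae and the factor that drives their transcription. They were chosen by name, with earlier results of these data known. They comprised 7 genes of the alpha ring and 7 of the beta ring of the 20S core, 10 of the base and 8 of the lid of the 19S cap, and the regulator RPN4. They were 33 of the 5656 genes that had a probe set of their own on the arrays, lay on 13 of the yeast chromosomes, and were all bright enough to be tested. No member had an array on which its signal was below the floor used for dim probe sets.

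The study compared total RNA of 8 yeast strains on 18 one-colour Affymetrix YG_S98 arrays. Wild type (NSY429) had 3 arrays. The other strains carried a deletion of RPD3, the gene of a histone deacetylase (NSY430, 2 arrays), a histone H3 that lacks residues 1 to 28 (NSY458, 2 arrays), a histone H3 in which lysines 4, 9, 14, 18, 23 and 27 are glutamine (CLY460, 3 arrays), a histone H4 that lacks residues 2 to 26 (NSY438, 2 arrays), or a histone H4 in which lysines 5, 8, 12 and 16 are glutamine (RMY491, 2 arrays). Double mutants carried the RPD3 deletion together with the H3 tail deletion (NSY459, 2 arrays) or the H4 lysine substitution (RMY492, 2 arrays), and are called the H3 double mutant and the H4 double mutant. The labels give 1 strain name for each genotype and do not say whether arrays of a strain came from separate cultures, so the p-values measure only the spread between arrays, which may be technical.

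The proteasome degrades proteins that carry ubiquitin chains. Its 20S core is a barrel in which the outer alpha rings gate the entry and the inner beta rings hold the proteolytic sites. The 19S cap binds the substrate, removes the ubiquitin and feeds the unfolded chain into the barrel: its base holds the ATPases Rpt and its lid holds the deubiquitinase Rpn11. In yeast, Rpn4 binds a shared promoter element of most of these genes, and is itself degraded by the proteasome, which closes a feedback loop. Rpd3 removes acetyl groups from histone tails, and a glutamine in place of lysine is used as a stand-in for acetyl-lysine.

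Signals are intensities in arbitrary units, after each array was scaled to a common trimmed mean, and each is compared only with the same probe set on other arrays. A signal is a share of the RNA on the array, so fewer cells with a transcript and less transcript in every cell cannot be told apart. RPD3 itself, the deleted gene, read 9.4 to 80.7 on the 6 arrays labelled with its deletion and 689.7 to 1001.4 on the wild-type arrays. All 4 alpha mating-type genes examined were above the floor of 140.2 on every array, although their level varied widely: the mean of MF(ALPHA)2 was 13500 in wild type and 259.4 in the H4 tail deletion. Of 6 a-type genes, STE2 and ASG7 were below the floor on every array, AGA2 was above it on 1 (153.5), BAR1 ran from 19.4 to 536.1, and MFA1 (161.1 to 580.1) and MFA2 (484.2 to 1123.8) were above it on every array. Pearson r of log2 signals was 0.949 to 0.988 within groups and 0.87 to 0.97 between groups. The actin 3′ to 5′ signal ratio, a sign of RNA integrity, was 1.37 to 1.41 in wild type and 1.19 to 1.85 over all arrays. The run settings of 3 arrays, the second replicates of the strains without an H3 tail, without an H4 tail, and with the H3 double mutation, name another strain than their labels. An earlier sampling period (days A to D, lettered here in the order of the labels' sampling dates) holds 10 arrays and a later one (days E to H) 8: both H4 lysine groups and the H3 lysine substitution lay wholly in the later period, which holds 1 wild-type array, replicate 3. The run settings of that wild-type array also name an amplification kit. Whether its RNA was prepared like that of the other arrays was not tested, and every value with period as a block rests on it for the later groups.

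More proteasome genes lay below than above wild type in every mutant. Of 231 comparisons of a member with wild type, 26 passed the test (limma, adjusted p under 0.05 over all probe sets tested), and 25 of those were lower. The H3 lysine substitution stood out by its count, with 11 members lower and 0 higher, and the calls reached every part of the complex. It is the only mutant with 3 arrays, and the members' median SE was 0.19 there, against 0.21 in the other mutants, which makes a call easier to reach. Averaged over the 7 comparisons, 28 members had a mean log2 change below 0 and 4 above 0, from −0.66 (RPN4) to 0.16 (RPN2). All 7 comparisons share the wild-type arrays, so their common direction is not 7 separate observations.

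The H3 lysine substitution was also where the share of members called exceeded that of all probe sets by the most. There 11 members (33.3%) fell, where 13.7% of all probe sets tested fell and 11.8% rose, and the median log2 change was −0.47 for the members and −0.08 for all probe sets. In the H4 tail deletion 5 members (15.2%) fell and 0 rose, close to the 15.1% of all probe sets that fell (12.3% rose), with a median of −0.32 against −0.05. In the H4 lysine substitution 3 members fell and 0 rose against 16.5% and 8.69% of all probe sets, with a median of −0.25 against −0.07. That share, 9.09%, was lower than that of all probe sets. The H3 double mutant had 2 members lower and 0 higher against 8.13% and 15.4%, with a median of −0.37 against 0.03, and the H4 double mutant had 2 lower and 0 higher against 12.9% and 11.6%, with a median of −0.11 against −0.03. In the H3 tail deletion 1 member fell and 0 rose against 2.98% and 10.7%, with a median of −0.16 against 0. The RPD3 deletion had 1 lower and 1 higher against 4.13% and 11.2%, and its median was −0.03 against 0.01. Outside the H3 lysine substitution, the share of members called lower was therefore at or below that of all probe sets, or above it by a fraction of a gene. Dimmer probe sets enter these background shares, whereas no proteasome gene was dim.

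The members' medians were below those of all probe sets in all 7 comparisons, but 3 of these depended on single arrays or on the block used. In the RPD3 deletion the members' median was above 0 without its second array (0.08, against 0 for all probe sets), without wild-type replicate 2 (0.03) or 3 (0.06), and with day (0.08), period (0.06) or replicate number (0.03) as a block. In the H3 tail deletion it was 0, against −0.02, without the second array, whose run settings name another strain. In the H4 tail deletion it was −0.14 without the second array, −0.47 without the first and −0.60 with the chip lot as a block, and with day as a block it was −0.07, against −0.09 for all probe sets. In the other 4 mutants it was below that of all probe sets under every alternative run. Below wild type were 30 of the 33 members in the H3 tail deletion, 30 in each lysine substitution, 31 in the H3 double mutant, 25 in the H4 tail deletion, 25 in the H4 double mutant and 19 in the RPD3 deletion. The 95% interval of the change lay within 2-fold in either direction for 30 members in the RPD3 deletion, 31 in the H3 tail deletion, 21 in the H3 lysine substitution, 27 in the H4 tail deletion, 29 in the H4 lysine substitution, 29 in the H3 double mutant and 28 in the H4 double mutant.

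**Figure D1:**
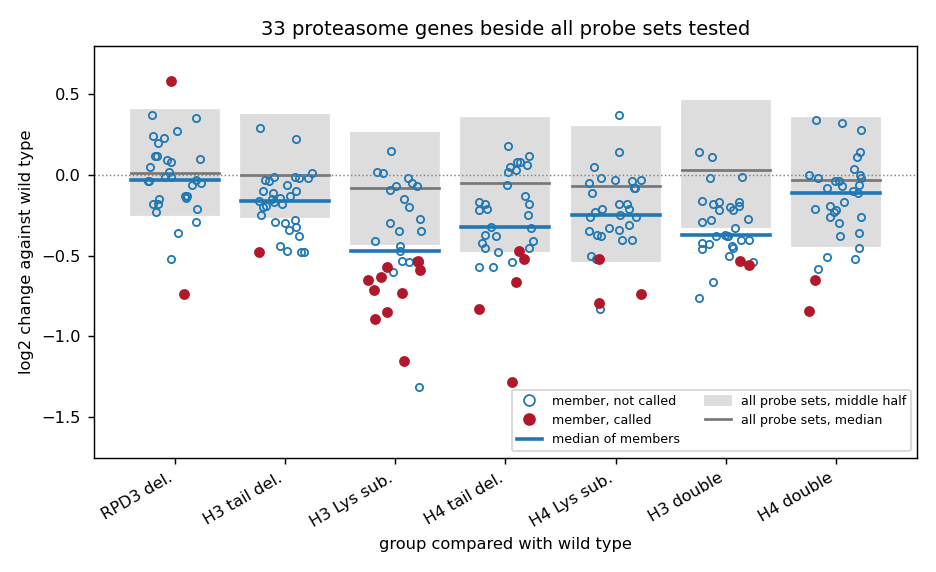
Log2 change of each of the 33 proteasome genes against wild type (circles; filled red where adjusted p was under 0.05), by group, with the members' median (blue line) and the middle 50% (grey box) and median (grey line) of all probe sets tested. In the H3 lysine substitution the members' median, −0.47, lies below the grey box, and 11 members are filled. The H3 double mutant's median, −0.37, also lies below its box (lower edge −0.32), with 2 members filled.

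RPN4 (YDL020C, chromosome IV), the transcription factor of the regulon, fell in the histone mutants with the H3 lysine substitution and the H4 tail deletion. It read 3015.6, 2634.5 and 1270.4 in wild type, 1008.6, 935.9 and 968.4 in the H3 lysine substitution, and 1095.3 and 727.7 in the H4 tail deletion. Every array of these mutants was below the lowest wild-type array, which was the one of the later period. The log2 change was −1.15 ± 0.27 (SE; 2.23-fold lower, adjusted p = 0.00729) in the H3 lysine substitution and −1.28 ± 0.30 (2.42-fold lower, adjusted p = 0.00667) in the H4 tail deletion.

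In the other mutants RPN4 lay inside the wild-type range or just below it. The RPD3 deletion read 1433.5 and 1580.7, the H3 tail deletion 1366 and 1788.8, and the H3 double mutant 1252.2 and 1303.8. The H4 lysine substitution read 1533.9 and 1890.7, and the H4 double mutant 1864.5 and 2278. None of these 5 groups passed the test, with log2 changes from −0.76 (adjusted p = 0.0848, H3 double mutant) to −0.07 (adjusted p = 0.912, H4 double mutant).

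The RPN4 result depended on which wild-type arrays served as the control. With period as a block, which in effect sets earlier groups against the 2 earlier wild-type arrays and later groups against the single later one, the change in the H3 lysine substitution was −0.39 ± 0.25 (adjusted p = 0.39). The H4 tail deletion then read −1.66 (adjusted p = 0.000226). RPN4 also fell with that block in the RPD3 deletion (−0.90 ± 0.21, adjusted p = 0.0142), the H3 tail deletion (−0.85, adjusted p = 0.0205) and the H3 double mutant (−1.14, adjusted p = 0.00225). Under it RPN4 changed sign in the H4 lysine substitution (0.42 ± 0.26, adjusted p = 0.374) and the H4 double mutant (0.70 ± 0.26, adjusted p = 0.121), neither past the test. Without the array of the H4 tail deletion whose run settings name another strain, and the other 2 such arrays, its change was −0.98 (adjusted p = 0.14).

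**Figure D2:**
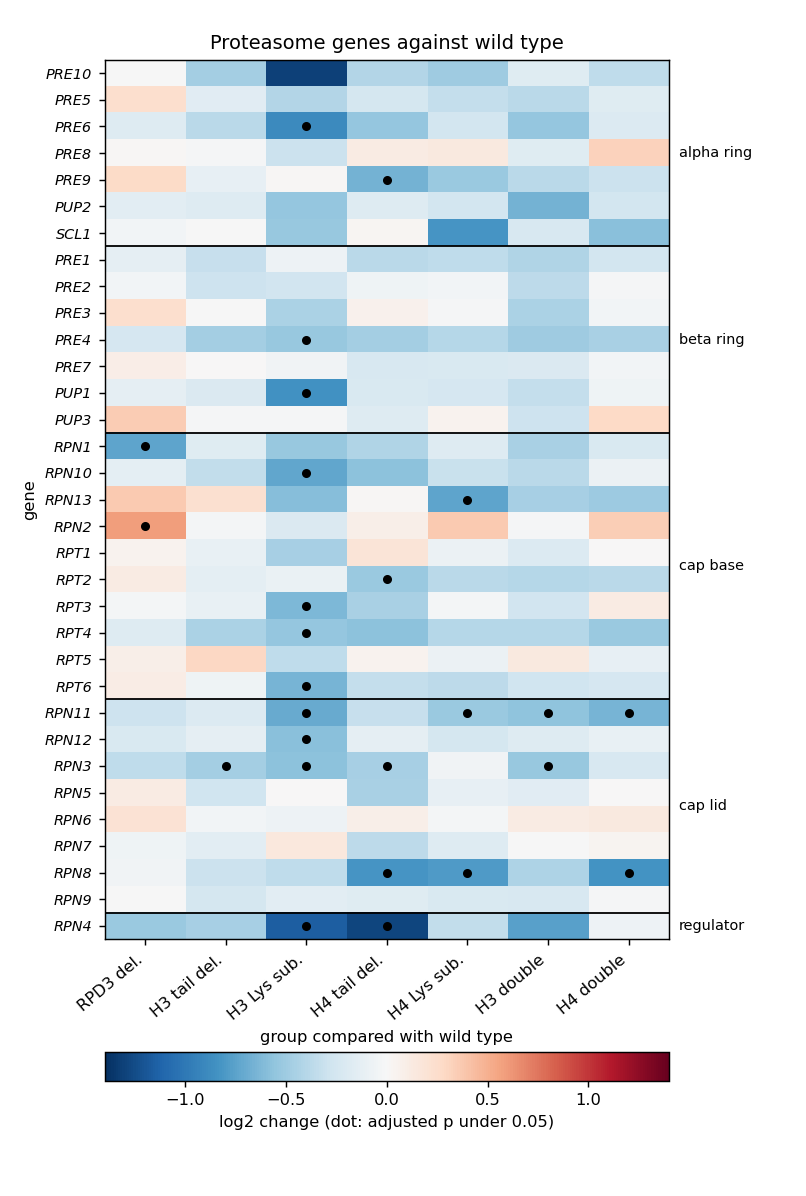
Log2 change against wild type of each of the 33 genes (rows, by part of the complex) in each of the 7 mutant groups (columns); a dot marks adjusted p under 0.05. The H3 lysine substitution column has 11 dots, from all 5 parts, and the only red cell with a dot is RPN2 in the RPD3 deletion.

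Alpha-ring genes, whose products form the gate of the core, fell singly: PRE6 in the H3 lysine substitution and PRE9 in the H4 tail deletion, while the other 5 passed the test in no mutant. PRE6 (YOL038W, chromosome XV) read 7552.8, 9923.2 and 8716.9 in wild type and 3220.3, 5329.6 and 6022 in the H3 lysine substitution. Every H3 lysine array was below every wild-type array, and the first was the lowest of all 18. The change was −0.89 ± 0.24 (1.85-fold lower, adjusted p = 0.0148). The RPD3 deletion read 8586.2 and 6796.9, the H3 tail deletion 8351.3 and 5321.5, and the H4 tail deletion 6239.6 and 5735.3. The H4 lysine substitution read 6595 and 8014.2, the H3 double mutant 7157.3 and 5007.6, and the H4 double mutant 7655.9 and 7529.1. Both H4 tail deletion arrays and both H3 double mutant arrays were below all wild-type arrays without passing the test.

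PRE10 (YOR362C, chromosome XV) had the widest range of any member, 12.8-fold between its lowest and highest array, and a single array set it. The H3 lysine substitution read 440.5, 3832.4 and 4498, against 3672, 5596.8 and 5655.3 in wild type. The first of these arrays was far below the other 17, which read 3257.8 or more. The change was −1.31 ± 0.60 (adjusted p = 0.13), and without that array it was −0.23 (adjusted p = 0.443). The other mutant groups had means between 3460 (H4 lysine substitution) and 4860 (RPD3 deletion), inside or just below the wild-type range.

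PRE9 (YGR135W), the alpha subunit that yeast can live without, read 3196.1, 4013.4 and 4504.1 in wild type and 2920.9 and 2042.4 in the H4 tail deletion. Both arrays lay below wild type (−0.66 ± 0.21, adjusted p = 0.0338), while both arrays of the RPD3 deletion, 4582.3 and 4733.1, lay above it without passing the test. PRE8 (YML092C, chromosome XIII) had the smallest mean change of the ring, 0.02. It read 7055.7, 8362.5 and 9601.6 in wild type, and 6081.8 to 10855 over the mutants, so that mutant and wild-type arrays overlapped. SCL1, PUP2 and PRE5 had mean changes of −0.31, −0.32 and −0.21. SCL1 and PUP2 had the most variable signals of all members, with median coefficients of variation within groups of 24.5% and 21.2%.

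Among the beta-ring genes, PUP1 and PRE4 fell in the H3 lysine substitution and none of the 7 passed the test in another mutant, by the probe set used for each gene. PUP1 (YOR157C, chromosome XV) encodes the subunit with trypsin-like activity. It read 5127.8, 5687.3 and 6002.3 in wild type and 2834.5, 3200 and 3286.5 in the H3 lysine substitution. These 3 arrays were the lowest of all 18, and the change was −0.85 ± 0.22 (1.80-fold lower, adjusted p = 0.0138). In the other mutants PUP1 read 3533.9 to 6700.6, and the low arrays at 3533.9 (H3 tail deletion) and 3839 (H3 double mutant) were those whose run settings name another strain.

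PRE4 (YFR050C, chromosome VI), a subunit without a catalytic site of its own, had a mean change below 0 in every mutant and varied in wild type. Wild type read 5019.6, 5664.6 and 8878.6, and the H3 lysine substitution 4664.8, 4143.6 and 4350.6 (−0.53 ± 0.18, adjusted p = 0.0446). The wild-type array of the later period was the highest of all 18. The mutant groups' mean changes ran from −0.23 in the RPD3 deletion to −0.53, and the mutant arrays, between 4099.4 and 5484.7, overlapped wild type. With period as a block, in which the later mutants are set against that array, PRE4 was lower in the H3 lysine substitution (−1.02 ± 0.17, adjusted p = 0.00435), the H4 lysine substitution (−0.89, adjusted p = 0.0146) and the H4 double mutant (−0.94, adjusted p = 0.00994).

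PUP3 (YER094C, chromosome V) had the smallest mean change of the beta ring, 0.02. It read 7613.9, 9395.5 and 10714.4 in wild type, and 10924.7 and 12456.4 in the RPD3 deletion, both above every wild-type array without passing the test. Of the other catalytic subunits, PRE2 (chymotrypsin-like) had a mean change of −0.16 and PRE3 (caspase-like) of −0.10. PRE1 (−0.28) and PRE7 (−0.09) also passed the test in no mutant, and PRE7 had the narrowest range of all members, 1.45-fold between its extreme arrays.

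The cap base had calls for 8 of its 10 genes, spread over 4 of the mutants. In the H3 lysine substitution 4 of 10 fell, with a median of −0.54: RPN10, a ubiquitin receptor (−0.73 ± 0.20, adjusted p = 0.0169), and the ATPases RPT6 (−0.65 ± 0.19, adjusted p = 0.0226), RPT3 (−0.63 ± 0.18, adjusted p = 0.0204) and RPT4 (−0.54 ± 0.18, adjusted p = 0.0396). For RPN10 the H3 lysine arrays read 4291.5, 3798.7 and 3927.2 against 5875.6, 6689.7 and 7497.9 in wild type. RPT6 read 5553, 5113.7 and 4736.3 against 6862.9, 8646.2 and 8747. The groups did not overlap for either gene. RPT2, an ATPase involved in opening the core's gate, passed the test in the H4 tail deletion, where it read 1263 and 855.1 against 1400.7, 1632.8 and 1447.8 (−0.52 ± 0.17, adjusted p = 0.0403).

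RPN1 and RPN2, the large scaffold subunits of the base, went opposite ways in the RPD3 deletion, where they were the only members called. RPN1 (YHR027C, chromosome VIII) read 2282.9, 3228.9 and 3327.6 in wild type and 2148.6 and 1415.4 in the RPD3 deletion (−0.74 ± 0.23, 1.67-fold lower, adjusted p = 0.0426). RPN2 (YIL075C, chromosome IX) read 3258.3, 3996.7 and 4643.1 in wild type and 6668.1 and 5132.8 in the RPD3 deletion (0.58 ± 0.17, 1.49-fold higher, adjusted p = 0.039). In each case both mutant arrays lay outside the wild-type range, and this was the 1 higher call among the members. Neither gene was called with day as a fixed block (RPN1 −0.45, adjusted p = 0.489; RPN2 0.78, adjusted p = 0.0625), replicate number (adjusted p = 0.0854 and 0.0683) or chip lot (adjusted p = 0.176 and 0.0744). RPN1 was also not called with period as a block (−0.64, adjusted p = 0.112), and RPN2 not with each array centred on its median (0.43, adjusted p = 0.205). RPN1 rested on the second RPD3 array, without which its change was −0.44 (adjusted p = 0.424), and RPN2 on the first, without which it was 0.39 (adjusted p = 0.261). The RPN1 call was also lost without wild-type replicate 2 (adjusted p = 0.1) or 3 (adjusted p = 0.113), and the RPN2 call without replicate 1 (adjusted p = 0.104) or 2 (adjusted p = 0.0619). The RPD3 deletion arrays had actin ratios of 1.68 and 1.66, above the 1.37 to 1.41 of wild type, and with that ratio as a covariate no member was called in this group. RPN1 was also below all wild-type arrays in the H3 lysine substitution (2169.6, 2042.3 and 1828.2), without passing the test.

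RPN13 (YLR421C), a ubiquitin receptor of the cap, read 6182.4, 10220.8 and 6366.7 in wild type and 4381.1 and 4441.8 in the H4 lysine substitution. Both arrays lay below wild type, and the change was −0.74 ± 0.24 (adjusted p = 0.0359). It was high in the RPD3 deletion (8779.1 and 10384.5), and the change there, 0.37, did not pass the test. RPT4 (YOR259C, chromosome XV) had the largest mean change of the base, −0.44. It read 2318.5, 2931.2 and 2426.9 in wild type and 1593.8, 1859.3 and 1792.6 in the H3 lysine substitution, while its mean in the other mutants ran from 1763 (H4 tail deletion) to 2262 (RPD3 deletion). All 3 H3 lysine arrays were below wild type. RPT5 (YOR117W, chromosome XV) had the smallest, 0. Wild type read 1972, 2449.4 and 1906.7, the H3 tail deletion 2877.5 and 2271.5, and the H3 lysine substitution 1664.3, 1721.4 and 1539.7, so that 1 array of the H3 tail deletion lay above wild type, the other inside its range, and all 3 H3 lysine arrays below it. RPT1, with a mean change of −0.09, passed the test in no mutant. Of the further probe sets that exist for RPT5 and for PRE3 of the beta ring, 1 gave a call, for PRE3. Its largest change was −0.7, in the H3 double mutant. The further probe sets of RPT5 did not show the lower level in the H3 lysine substitution, with changes of 0, −0.02 and 0, the first on a probe set with a mean signal of 103.1, below the floor.

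**Figure D3:**
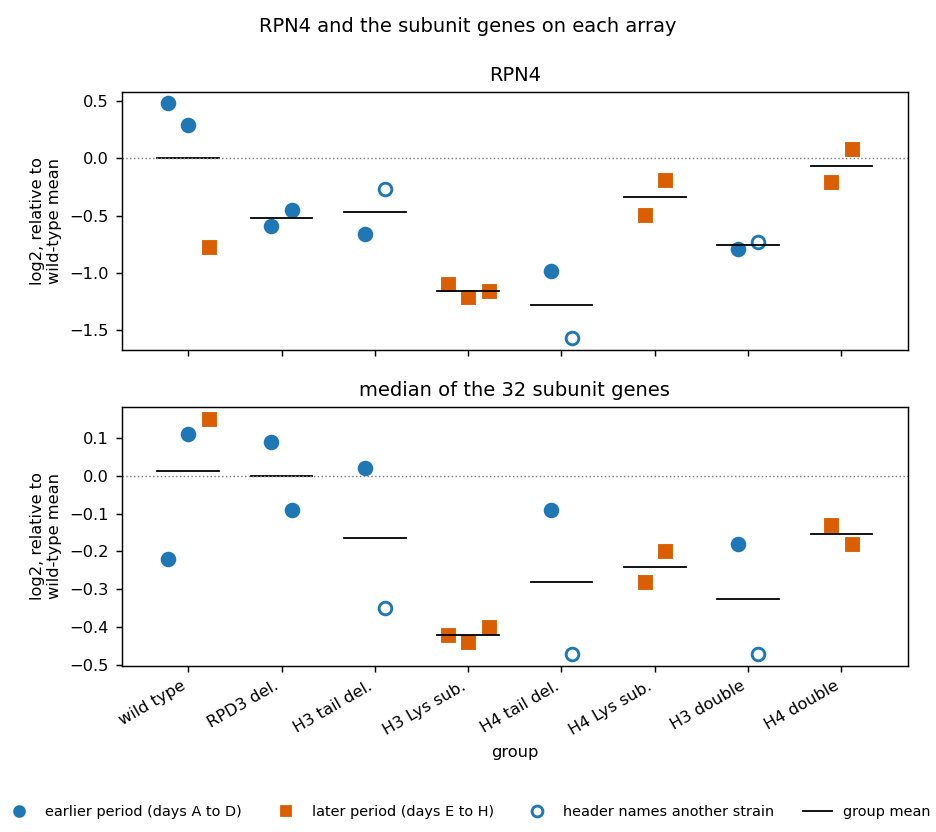
Log2 level of RPN4 (top) and median of the 32 subunit genes (bottom) on each array relative to the wild-type mean, by group; circles are arrays of the earlier and squares of the later sampling period, open circles have run settings that name another strain, and lines are group means. The 3 wild-type arrays spread from −0.77 to 0.48 for RPN4, the 3 H3 lysine arrays lie together in both panels, and each open circle is the lower of its pair in the bottom panel.

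Among the 8 lid genes the calls gathered on 3. RPN3 and RPN11 each fell in 4 of the 7 mutants and RPN8 in 3, whereas 5 other lid genes gave 1 call in all, RPN12 in the H3 lysine substitution (−0.59 ± 0.20, adjusted p = 0.0443). RPN3 (YER021W), a structural lid subunit, read 2659.3, 3010.9 and 2693.7 in wild type. It was called in the H3 tail deletion (2017.5 and 1981.8; −0.48 ± 0.15, adjusted p = 0.0433), the H3 lysine substitution (2071.6, 1866 and 1716; −0.57 ± 0.13, adjusted p = 0.0068), the H4 tail deletion (1942 and 2092.2; −0.47 ± 0.15, adjusted p = 0.0297) and the H3 double mutant (2016.4 and 1851.8; −0.53 ± 0.15, adjusted p = 0.0184). Each of these arrays was below every wild-type array, and so were both arrays of the RPD3 deletion (2004.6 and 2356.4), which did not pass the test. In the H4 lysine substitution RPN3 read 2448.9 and 2964.6 and overlapped wild type. RPN3 was not called with period as a block in the H3 tail deletion (−0.50, adjusted p = 0.0558) or in the H3 lysine substitution (−0.52, adjusted p = 0.104), and was called in the H4 tail deletion and the H3 double mutant. With day as a fixed block it was called in none of the 3 of its mutants for which that fit gives a value.

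RPN11 (YFR004W, chromosome VI), the deubiquitinase that strips the chain from the substrate, read 4743.7, 5435.9 and 4502 in wild type. In the H3 lysine substitution it read 3036.7, 3093.4 and 2831.7 (−0.71 ± 0.15, 1.63-fold lower, adjusted p = 0.00489), in the H4 lysine substitution 3059.7 and 3775.1 (−0.52 ± 0.17, adjusted p = 0.0392), in the H3 double mutant 3526.8 and 3110.3 (−0.56 ± 0.17, adjusted p = 0.0311) and in the H4 double mutant 3331.7 and 2906.5 (−0.65 ± 0.17, adjusted p = 0.0151). All 9 arrays were below the lowest wild-type array. So were both arrays of the RPD3 deletion, 3768.9 and 4249.5, and of the H3 tail deletion, 4498.2 and 4087.3, which did not pass the test. The H4 tail deletion had 1 array inside the wild-type range (4746.8) and 1 below it (3239.2). RPN11 was called with period as a block only in the H3 double mutant (−0.62, adjusted p = 0.0288), and read −0.59 (adjusted p = 0.113) in the H3 lysine substitution, −0.41 (adjusted p = 0.318) in the H4 lysine substitution and −0.53 (adjusted p = 0.173) in the H4 double mutant.

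RPN8 (YOR261C, chromosome XV), the partner of Rpn11 in the lid, fell in the 3 H4 mutants. It read 2005.6, 2698.3 and 2023.1 in wild type, 1507.6 and 1034.3 in the H4 tail deletion (−0.83 ± 0.19, 1.78-fold lower, adjusted p = 0.00536), 1297.8 and 1268.1 in the H4 lysine substitution (−0.79 ± 0.19, adjusted p = 0.00806), and 1204.8 and 1269.8 in the H4 double mutant (−0.84 ± 0.19, adjusted p = 0.0061). These 6 arrays were lower than all 12 others, of which the lowest read 1545.9. In the H3 tail deletion it read 1751.1 and 1868, in the H3 lysine substitution 1545.9, 1900.3 and 1796.6, in the H3 double mutant 1665.3 and 1627.7, and in the RPD3 deletion 1944 and 2378.8. All 7 arrays of the H3 mutants were thus also below the lowest wild-type array. They did not pass the test, except in the H3 double mutant with each array centred on its median, and no test set the H4 mutants against the H3 mutants. The RPN8 call was kept with period as a block in the H4 tail deletion but in neither later H4 group.

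RPN6 (YDL097C, chromosome IV), the lid subunit that contacts the core, had the smallest mean change of the lid, 0.06. It read 2929.3, 3024.9 and 4342 in wild type and 2811.8 to 4402.9 in the mutants, with full overlap. RPN5, RPN7 and RPN9 had mean changes of −0.12, −0.08 and −0.15 and passed the test in no mutant.

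**Figure D4:**
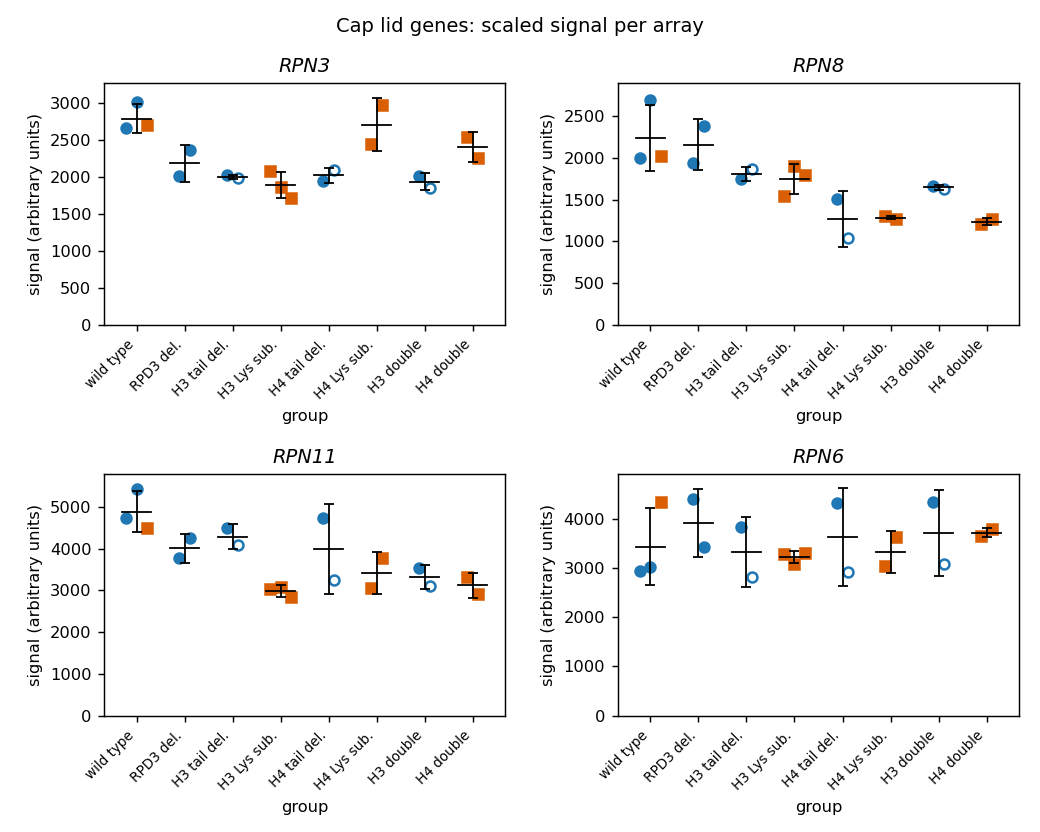
Scaled signal of 4 lid genes on each array, by group, with mean ± SD; circles are arrays of the earlier and squares of the later sampling period, and open circles have run settings that name another strain. RPN8 is lowest in the 3 H4 groups (means 1271, 1283 and 1237, against 2242 in wild type), RPN3 and RPN11 lie below wild type in most mutants, and RPN6 overlaps throughout.

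Most of the calls were lost when a single array was left out. Leaving out 1 array of the mutant or of wild type at a time, 4 of the 26 calls held throughout, all in the H3 lysine substitution: RPN4, PUP1, RPN3 and RPN11. The other 22 were lost without at least 1 array, 16 of them without the second wild-type array, and none changed direction. Some losses left the estimate almost unchanged: RPN12 in the H3 lysine substitution ran from −0.64 to −0.56, against −0.59 with all arrays. Others moved it, as for RPN1 in the RPD3 deletion, at −0.44 without its second array against −0.74. With sampling period as a block 8 of the 26 were called, with chip lot 7, and with replicate number 21. Day as a fixed block gave a value for 10 of them, of which 1 was called, RPN4 in the H4 tail deletion. When only the arrays of the mutant and of wild type entered the fit, no member was called in 6 of the mutants. In the H3 lysine substitution 8 were called, of which 6 were among the 26 calls. RPN4 was not called there (−1.15, adjusted p = 0.0892). Without the 3 arrays whose run settings name another strain, the calls in the H3 tail deletion, the H4 tail deletion and the H3 double mutant were lost. Each of these groups then had 1 array, assumed to vary like the other groups. The H3 lysine substitution and wild type kept all their arrays. The changes of its 11 called members therefore stayed at −1.15 to −0.53. Only the shared estimate of the spread moved, with a median SE of 0.15 against 0.19, and PRE4 lost its call. RPN3 then read −0.46 (adjusted p = 0.161) in the H3 tail deletion and −0.47 (adjusted p = 0.114) in the H3 double mutant, and RPN8 read −0.56 (adjusted p = 0.109) in the H4 tail deletion. Those 3 arrays were also the lower of their pair in the median of the 32 subunits, at −0.35, −0.47 and −0.47 relative to wild type, against 0.02, −0.09 and −0.18 for their partners.

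The 3 H3 lysine arrays agreed closely in that median, at −0.42, −0.44 and −0.40. Wild type read −0.22, 0.11 and 0.15, so all 3 were lower than all wild-type arrays. Of the 11 called genes, only PRE4 was called with period as a block, while the 11 changes ran from −1.02 to −0.39 with a median SE of 0.26, against 0.19 without the block, and the members' median change was −0.48. Leaving out 1 array at a time gave 5 members without the second wild-type array, 5 without the second H3 lysine array, 7 without the first and 12 without the first wild-type array.

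Comparisons among the mutants asked whether deleting RPD3 changed these genes in a histone-mutant background, and the reverse. Deleting RPD3 in the H3 tail deletion background called 0 members (1.07% of all probe sets rose and 0.267% fell; 1 member at an unadjusted p under 0.05 in limma), and the lowest adjusted p was 0.265, for RPN13 (−0.68 ± 0.26). In the H4 lysine background the same count was 0 (2.17% rose and 1.25% fell; 0 at an unadjusted p under 0.05), with a lowest adjusted p of 0.629. Members' medians were −0.15 and 0.14, against 0 and 0.07 for all probe sets.

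Against the RPD3 deletion alone, the H4 double mutant had 2 members lower and 0 higher, where 12% of all probe sets fell and 5.25% rose. They were RPN8, with means of 1237 and 2161 (−0.80 ± 0.21, adjusted p = 0.0207), and RPN13, with means of 5202 and 9582 (−0.88 ± 0.26, adjusted p = 0.0367). Neither overlapped between the groups, which share no sampling period, and neither was called with period or lot as a block or with each array centred on its median. The H3 double mutant had 0 members called against the RPD3 deletion (4.05% rose and 3.17% fell; 7 members at an unadjusted p under 0.05), with RPN13 at −0.83 ± 0.26 (adjusted p = 0.0719) and PRE3 at −0.67 ± 0.20 (adjusted p = 0.0621). These groups share their sampling days, and with day as a fixed block 4 members were called: PRE3, PRE5, RPN2 and RPN13. The shares of all probe sets given here are from the fit without that block, so they are no background for this count.

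Interactions ask whether the effect of deleting RPD3 differs with and without the histone change. None of the 33 members passed the test for the H3 tail deletion (1.26% of probe sets were positive and 3.92% negative; 3 members at an unadjusted p under 0.05), where RPN13 had −1.06 ± 0.36 (adjusted p = 0.101). None passed for the H4 lysine substitution (0.968% positive and 2.19% negative; 1 member at an unadjusted p under 0.05), where RPN4 had 0.80 ± 0.45 (adjusted p = 0.389).

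Removing the H3 tail and substituting its lysines did not differ for any member past the threshold (0.357% of probe sets higher and 0.0382% lower in the tail deletion). At an unadjusted p under 0.05 there were 8 members, and the median difference was 0.29, against 0.14 for all probe sets, with the tail deletion higher. RPT5 came closest, at 0.64 ± 0.16 (adjusted p = 0.0964), followed by RPN13 at 0.82 ± 0.24 (adjusted p = 0.113), and RPN4 was at 0.69 ± 0.30 (adjusted p = 0.232). The further probe sets of RPT5 differed less: against wild type they read 0.05, 0.23 and −0.19 in the tail deletion and 0, −0.02 and 0 in the lysine substitution. For H4 the count was also 0 (3.63% higher and 1.82% lower; 4 at an unadjusted p under 0.05), with RPN13 at 0.77 ± 0.26 (adjusted p = 0.117) and RPN4 at −0.93 ± 0.33 (adjusted p = 0.127). The groups of each pair lie in different sampling periods.

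Across strains, most subunit genes had r above 0 with RPN4, as most pairs of subunits had with each other. Over the 8 group means, Pearson r between RPN4 and the median log2 signal of the 32 subunits was 0.36. It was 0.16 over the 7 mutants alone. That median was taken over signals not centred by gene, so it follows the genes of middle brightness. It is another measure than the median changes given next, for which no r was computed. The points share arrays and scaling, and the spread within groups was 0.172 for the subunit median and 0.354 for RPN4 (SD, log2). The H4 tail deletion had the lowest RPN4 mean, 911.5, with a median change of −0.28 over the 32 subunits. The H3 lysine substitution had the next lowest, 971, and the lowest median change of the subunits, −0.45. The H4 double mutant had the mutant mean closest to wild type, 2071, with −0.14. Single subunits ran from −0.15 (SCL1) to 0.93 (RPT3), with RPN10 at 0.92, PRE6 at 0.87 and RPN3 at 0.79, the genes whose pattern over the group means was most like that of RPN4. In all, 31 of the 32 had r above 0 with RPN4, with a median of 0.46, and 411 of the 496 pairs of subunits had r above 0 with each other, with a median of 0.43.

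Genes that assemble or bind the proteasome gave calls in both directions. Of 16 assembly and associated factors, all tested, 3 rose and 0 fell in the RPD3 deletion, 2 and 0 in the H3 tail deletion, 1 and 3 in the H3 lysine substitution, 1 and 3 in the H4 tail deletion, 0 and 2 in the H4 lysine substitution, 2 and 2 in the H3 double mutant, and 0 and 2 in the H4 double mutant. Set against all probe sets, the share that rose was 18.8% in the RPD3 deletion (11.2% of all), 12.5% in the H3 tail deletion (10.7%), 12.5% in the H3 double mutant (15.4%), and 6.25% or 0 in the other 4. The share that fell was 18.8% in the H3 lysine substitution (13.7%) and the H4 tail deletion (15.1%), 12.5% in the H4 lysine substitution (16.5%), the H3 double mutant (8.13%) and the H4 double mutant (12.9%), and 0 in the other 2. As 1 gene of 16 is 6.25%, the shares above 0 differ from the background by about 1 gene or less. IRC25, a chaperone of alpha-ring assembly, fell in 5 mutants. It read 1518.4, 2128.3 and 1379.9 in wild type and 687.4 and 637 in the H4 lysine substitution (−1.31 ± 0.23, adjusted p = 0.00152). All arrays of those 5 mutants lay below wild type.

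CIC1, a nucleolar protein that binds the core, fell in 4 mutants, by the most in the H4 lysine substitution, where it read 1129.8 and 1378.2 against 2917.3, 4789.4 and 2291.6 (−1.35 ± 0.27, adjusted p = 0.0031). With period as a block IRC25 remained called in 3 of its 5 mutants, and CIC1 in the H4 tail deletion but not in the other 3. NAS6, a chaperone of the cap base, rose in 4 mutants, from 1822.4, 1574.1 and 2220 in wild type to 3465 and 3917 in the RPD3 deletion (0.99 ± 0.17, adjusted p = 0.00165), and fell in the H4 tail deletion to 1234.8 and 1353.2 (−0.52 ± 0.17, adjusted p = 0.038). The groups did not overlap in either case. HUL5, a ubiquitin ligase of the proteasome, rose in 3 mutants, by the most in the H4 tail deletion (1.07 ± 0.25, adjusted p = 0.0065).

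Of 19 genes of ubiquitin conjugation and delivery, 5 rose and 0 fell in the RPD3 deletion, 4 and 0 in the H3 tail deletion, 2 and 1 in the H3 lysine substitution, 4 and 0 in the H4 tail deletion, 2 and 2 in the H4 lysine substitution, 6 and 0 in the H3 double mutant, and 6 and 2 in the H4 double mutant. The share that rose was 26.3% in the RPD3 deletion (11.2% of all probe sets), 21.1% in the H3 tail deletion (10.7%) and the H4 tail deletion (12.3%), and 31.6% in the H3 double mutant (15.4%) and the H4 double mutant (11.6%). It was near the background in the lysine substitutions, at 10.5% for H3 (11.8%) and H4 (8.69%). The share that fell, 0 to 10.5%, was below that of all probe sets in each mutant. UBI4, the stress-inducible polyubiquitin gene, rose in all 7 mutants. It read 3116.9, 2133 and 3962.5 in wild type and 5341.5 to 11321.9 over the 15 mutant arrays, all of them above wild type. Its log2 change ran from 0.93 (adjusted p = 0.00425) in the H3 lysine substitution to 1.71 (adjusted p = 0.000154) in the H4 tail deletion. Under the period block it was 0.52 (adjusted p = 0.205) in the H3 lysine substitution and 0.72 (adjusted p = 0.0936) in the H4 lysine substitution, and still past the test in the other 5. Its ubiquitin repeats resemble those of other ubiquitin genes, and whether its probes tell them apart is not given in the sources used here.

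UBC5, a stress-induced ubiquitin-conjugating enzyme, rose in 6 mutants, whereas UBC4, its close relative, passed the test in none, with no test of the difference between them. Wild type read 1223.6, 1129.5 and 1327.6 for UBC5, the H3 tail deletion 4236.2 and 3469.8 (1.65 ± 0.22, adjusted p = 0.000496) and the H3 lysine substitution 3751.9, 3430.7 and 4348.2 (1.64 ± 0.20, adjusted p = 0.000111). All of these mutant arrays were above wild type. The H4 lysine substitution read 1450.8 and 1422.6, also above wild type, and did not pass the test (0.23). With period as a block the H4 double mutant was not past it either (0.93 ± 0.30, adjusted p = 0.0754). DOA1 and UFD2, which handle ubiquitin chains with Cdc48, each rose in 4 mutants: the RPD3 deletion, the H3 tail deletion and both double mutants. In the RPD3 deletion their changes were 0.94 ± 0.18 (adjusted p = 0.00276) and 0.70 ± 0.16 (adjusted p = 0.0102).

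**Figure D5:**
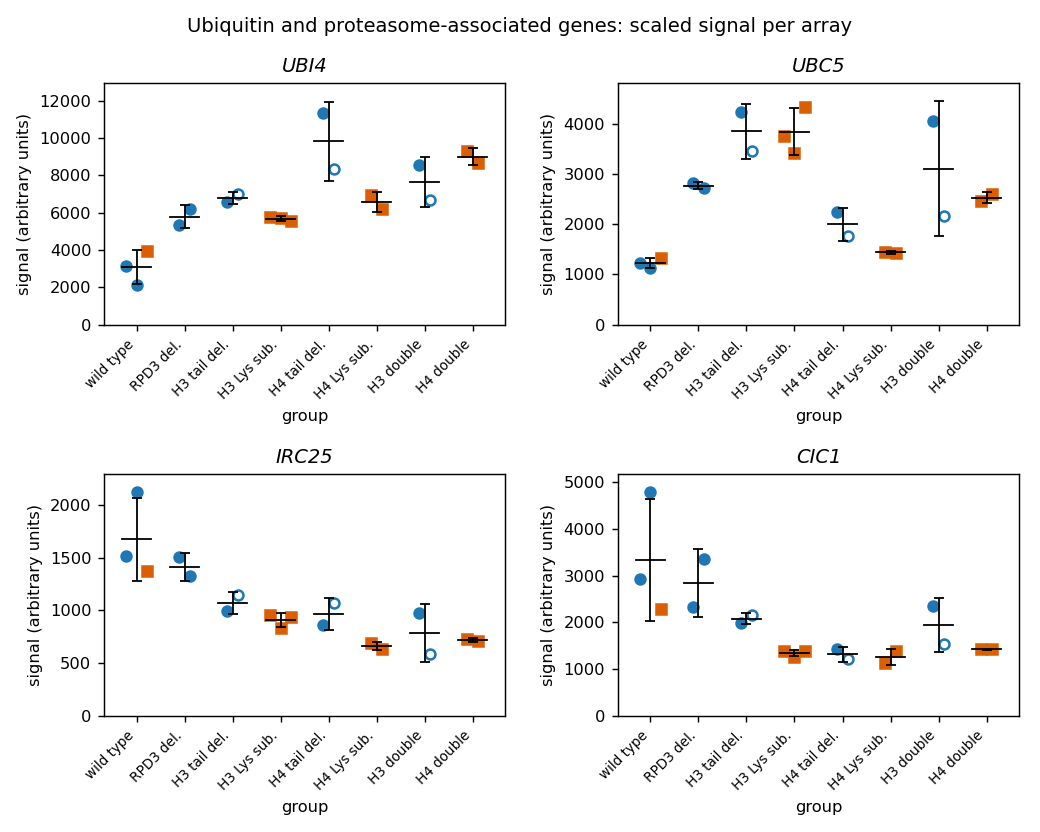
Scaled signal of UBI4, UBC5, IRC25 and CIC1 on each array, by group, with mean ± SD; symbols are as for the lid genes. UBI4 lies above all wild-type arrays in every mutant, from 5341.5 to 11321.9, UBC5 is highest in the H3 tail deletion and the H3 lysine substitution, IRC25 is low in the H4 groups, the H3 lysine substitution and the H3 double mutant (means 662.2 to 966.8), and CIC1 in the H4 groups and the H3 lysine substitution (means 1254 to 1425).

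Among 7 genes that act on RPN4, 0 rose and 0 fell in the RPD3 deletion and the H3 tail deletion, 0 and 1 in the H3 lysine substitution, 2 and 1 in the H4 tail deletion, 0 and 2 in the H4 lysine substitution, 0 and 1 in the H3 double mutant, and 0 and 1 in the H4 double mutant. Of 7 genes 1 is 14.3%, close to the 8.13% to 15.1% of all probe sets that fell in the mutants with 1 lower call. The share was 28.6% for the 2 that rose in the H4 tail deletion (12.3% of all) and the 2 that fell in the H4 lysine substitution (16.5%). PDR1, a drug-resistance factor that activates RPN4, fell in 4 mutants, by the most in the H4 lysine substitution, where it read 1260.9 and 1172.6 against 2058.6, 2795.5 and 2973.6 (−1.08 ± 0.19, adjusted p = 0.00148). PDR3, its paralog, rose in the H4 tail deletion (619.9 and 749.1 against 318, 404.8 and 313.5; 0.99 ± 0.20, adjusted p = 0.00276) and fell in the H4 lysine substitution (203.2 and 227.9; −0.67 ± 0.20, adjusted p = 0.025). HSF1, the heat shock factor, rose in the H4 tail deletion, where RPN4 was lowest, reading 1937.8 and 2406.1 against 738.8, 661.4 and 1252.6 (1.35 ± 0.34, adjusted p = 0.00999). MUB1, which with Ubr2 marks Rpn4 for degradation, fell in the H3 double mutant (−0.71 ± 0.22, adjusted p = 0.0292).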

How the data were processed

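Total RNA of 8 yeast strains was measured on 18 one-colour arrays. The deposited values are linear intensities in arbitrary units, 1 for each probe set and array. The authors had already brought the arrays to nearly the same 2% trimmed mean (1501 to 1502), as the values show. The sources used here do not give how probes were summarised. The deposited run settings (unit other) give, per the file headers, a chip lot and a strain description.

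Arrays were scaled to an equal 2% trimmed mean, raised to a floor of 140.2 (percentile 25 of the pooled signals), and taken to log2. Of 9335 probe sets, 60 controls were left out, and 7851 above the floor on at least 2 arrays were tested. Of several probe sets of a gene, that with the highest mean signal was used. Names came from the platform annotation, matched to the R64 gene table.

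limma 3.58.1 (R 4.3.3; lmFit, eBayes with trend) was fitted to all 18 arrays with 1 mean per group (10 residual and 3.76 prior degrees of freedom), checked on simulated data. Tests were two-sided, adjusted by Benjamini-Hochberg over all probe sets of a contrast (15 contrasts), and called at 0.05. Values are signals, means ± SD, and log2 changes ± SE. The number of arrays limits the precision.

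Members and lists were chosen with earlier results of these data known. All members are named; given array by array are RPN4 and, in each part, the 2 members with the largest and the 1 with the smallest absolute mean change over the 7 comparisons with wild type, and further called members. Of each wider list up to 4 genes called in the most mutants are named. Replicate numbers 1 and 2 mark shared sampling days (A and B) in the RPD3 deletion, H3 tail deletion and H3 double mutant, and the first H4 tail deletion array also lies on day A. All 4 arrays of the H4 lysine groups share day E, whatever their number. Wild-type replicates 1 and 2 lie on days B and C, so replicate number as a block does not pair mutants with wild type by day. In the first 3 groups the replicate differences correlated at 0.34, −0.05 and 0.28. With replicate number as a block, calls went from 2 to 0 in the RPD3 deletion. Promoter and protein sequences were not used here.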

Additional observations from a re-analysis of the deposited data

Results flagged for a closer look

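For 3 of the 42 genes of the wider lists, the effect of deleting RPD3 differed between cells with and without the H3 tail. The test was of the interaction itself in the limma model, and all 3 were negative. They were 2 of the 16 assembly and associated factors (12.5%) and 1 of the 19 ubiquitin genes (5.26%). Of all probe sets, 3.92% were negative and 1.26% positive, so the count lies within about 2 genes of that share. For NAS2, a chaperone of the cap base, the interaction was −1.98 ± 0.45 (SE, log2; adjusted p = 0.0225): wild type read 280.4, 280.2 and 239.8, the RPD3 deletion 599.6 and 939.5, the H3 tail deletion 367 and 503, and the H3 double mutant 262.7 and 358.8. For NAS6 it was −1.03 ± 0.25 (adjusted p = 0.0345), the RPD3 deletion reading 3465 and 3917, the H3 tail deletion 3932 and 3435.8, and the H3 double mutant 3938.6 and 3262.2, against 1574.1 to 2220 in wild type. For UBC5 it was −1.55 ± 0.33 (adjusted p = 0.0168), with a wide gap between the H3 double mutant arrays, 4066.9 and 2156.3, of which the second has run settings that name another strain. Without the 3 arrays whose run settings name another strain, the interaction was −1.98 for NAS2 (adjusted p = 0.176), −0.99 for NAS6 (adjusted p = 0.199) and −1.24 for UBC5 (adjusted p = 0.0427), and with only these 4 groups in the fit none passed the test (adjusted p of 0.136, 0.193 and 0.181). The groups share sampling days, and with day as a fixed block none passed it either (NAS2 −2.16, adjusted p = 0.0899; NAS6 −1, adjusted p = 0.113; UBC5 −1.34, adjusted p = 0.0842). NAS6 also did not pass with quantile normalization (adjusted p = 0.0701), median centring (adjusted p = 0.09), chip lot (adjusted p = 0.0635) or the actin ratio (adjusted p = 0.0714), nor UBC5 with chip lot (adjusted p = 0.0529) or the actin ratio (adjusted p = 0.0543). All 3 passed with period, day as a random block or replicate number.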

How the results depend on the processing

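The number of members called against wild type moved by over 1.5 times as follows. In the H3 lysine substitution, 11 became 6 with median centring, 1 (PRE4) with the sampling period and 3 (PRE4, PUP1, RPN10) with the chip lot as a block. In the RPD3 deletion, 2 became 1 with no filter or day as a random block (RPN2) or with lot (RPN4, so that both calls were lost), and 0 with only the groups compared, day as a fixed block, the replicate block, the actin ratio as a covariate, or without the 3 arrays whose run settings name another strain. In the H3 tail deletion, 1 became 0 with a floor at the 10th percentile, only the groups compared, day as a fixed block, the actin ratio, or without the 3 arrays, and with period or lot the 1 call was RPN4 in place of RPN3. In the H4 tail deletion, 5 became 2 with median centring, 0 with only the groups compared or without the 3 arrays, 1 with day as a fixed block, 8 with lot, of which 3 were among the 5, and 3 with the replicate block. In the H4 lysine substitution, 3 became 1 with median centring (RPN8), and 1 with period or lot, where all 3 were lost and another gene was called (PRE4 lower with period, PRE10 higher with lot), 0 with only the groups compared and 5 without the 3 arrays. In the H3 double mutant, 2 became 4 with quantile normalization, 7 with median centring, 0 with only the groups compared or without the 3 arrays, 1 with day as a fixed block (RPN4, so that both calls were lost) and 5 as a random block, and 6 with lot, of which RPN11 was among the 2. With the actin ratio the count stayed at 2, but PRE3 and PRE6 were called in place of RPN3 (adjusted p = 0.0884) and RPN11 (adjusted p = 0.086). In the H4 double mutant, 2 became 0 with only the groups compared, and 1 with period or lot, where both were lost and another gene was called (PRE4 lower with period, PRE10 higher with lot). The H3 double mutant against the RPD3 deletion went from 0 to 2 with quantile normalization, 4 with day as either block and 1 with lot. The H4 double mutant against the RPD3 deletion went from 2 to 1 with quantile normalization, no filter or day as a random block, and to 1 other gene with period (RPN4) or lot (PRE10), both higher, to 0 with median centring, only the groups compared or the actin ratio, and to 4 without the 3 arrays. The tail deletions against the lysine substitutions went from 0 to 3 for H3 without the 3 arrays, and from 0 to 1 for H4 with quantile normalization, period or lot. The cause of these moves was not tested.

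Leaving out 1 array at a time gave 0 to 2 members in the RPD3 deletion, 0 to 2 in the H3 tail deletion, 5 to 12 in the H3 lysine substitution, 0 to 7 in the H4 tail deletion, 0 to 4 in the H4 lysine substitution, 0 to 4 in the H3 double mutant, 0 to 3 in the H4 double mutant, 0 to 5 and 0 to 1 in the H3 and H4 double mutants against the RPD3 deletion, 0 to 1 in the H3 interaction, and 0 in the 5 other contrasts. RPN4 changed sign, without passing the test, in the H4 lysine substitution with period (0.42) and lot (0.34), and in the H4 double mutant with quantile normalization (0.04), period (0.70), lot (0.61) and without the first (0.17) or second (0.07) wild-type array or the first array of the mutant (0.08), against −0.45 without the third wild-type array. The members' median stayed below 0 in all 7 mutants under quantile normalization and median centring, which moved the median of all probe sets from 0.03 to −0.11 in the H3 double mutant; with period as a block it was 0.06 in the RPD3 deletion and below 0 in the other 6. Day as a fixed block (0.08), the replicate block (0.03) and leaving out wild-type replicate 2 (0.03) or 3 (0.06) or the second RPD3 array (0.08) also put it above 0 in the RPD3 deletion. The variance without a trend moved no count by over 1.5 times. The replicate block changed the counts named here and no other by over 1.5 times. Day as a fixed block could not be estimated where groups share no day with their control. The search for the PACE promoter motif was not run, as no promoter sequences were used here.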
